A study of Mus musculus with 10 samples.

Results

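The genes described here encode the enzymes of de novo purine synthesis and of the branches from inosine monophosphate (IMP) to GMP and to AMP: Ppat, Gart, Pfas, Paics, Adsl, Atic, Impdh1, Impdh2, Gmps and Adssl1. The set was chosen by the measured TAB over sham ratios of Gmps, which was among the most up-regulated genes after transverse aortic banding (TAB), so that difference of Gmps is given as a description without a test. A gene was taken when its symbol on the array was 1 of these 10 names. Of 19942 gene symbols on 26423 probes, 8 matched, each with 1 probe, and Atic and Impdh2 were not analysed here. Of the 8 genes, 7 passed the removal of probes whose scaled intensity was below 1 on any array, and Ppat did not.

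The samples were total RNA of the left ventricle of male C57BL/6J mice, 8 weeks old at surgery, in which the aorta had been banded (TAB, a pressure overload) or which had a sham operation. Each operation gave 5 samples, 1 from each of days 3, 5, 7, 14 and 28, and each sample was read on its own array in a single colour. The sources used here do not state how many mice made up a sample, and the labels describe no genetic change in the mice. The condition label of the TAB sample titled day 14 gives 15 days, and it was used as day 14. A difference on a single day had no replicate check. The p-values over days measure the spread of the TAB over sham ratio between days. That spread includes any real change of the effect over time and may in part be technical. The median raw intensity was 34 to 57 per array, and 40.2 to 47.3% of the spots carried a negative flag, read here as a spot not found at scanning. All 10 cardiomyocyte markers examined were found on every array. In RNA of a whole ventricle, fewer cells of a type and less RNA per cell cannot be told apart.

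Cells build purines on an activated ribose, phosphoribosyl pyrophosphate (PRPP), using glutamine, glycine, aspartate and one-carbon units, and the ring is complete at IMP. From IMP, IMP dehydrogenase and GMP synthetase make GMP, and adenylosuccinate synthetase and adenylosuccinate lyase make AMP. In heart muscle the AMP branch also forms, together with AMP deaminase, the purine nucleotide cycle, and ATP lost under strain is replaced both by salvage of free bases and by this slower synthesis. Proliferating cells draw on the pathway for RNA and DNA.

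Gmps, the GMP synthetase that aminates xanthosine monophosphate with glutamine, was higher in TAB than in sham on each of the 5 days, with a mean log2 ratio of 4.20 as measured and of 2.70 with values raised to the 1st percentile of found spots, since its spot was found on 1 of 5 sham arrays. Adssl1, the muscle isozyme of adenylosuccinate synthetase, was lower on each of the 5 days (mean log2 ratio −0.73). Gart, Pfas, Paics and Adsl of the route to IMP and Impdh1 at the entry of the GMP branch differed by mean log2 ratios between −0.10 and 0.12. The promoters of Gmps and Adssl1, the 2 genes on which the results turn, are shown as the 250 bases before the transcript start in RefSeq (GRCm38.p6). Both lie on the plus strand, Gmps at chr3:63975893-63976142 and Adssl1 at chr12:112619797-112620046. Capitals mark the GC box GGGCGG or its reverse complement CCGCCC.

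Gmps: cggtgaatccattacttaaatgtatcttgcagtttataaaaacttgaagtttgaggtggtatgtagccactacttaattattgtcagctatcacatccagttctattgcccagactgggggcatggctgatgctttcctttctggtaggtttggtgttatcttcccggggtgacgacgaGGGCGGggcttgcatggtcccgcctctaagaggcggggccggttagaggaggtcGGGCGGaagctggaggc
Adssl1: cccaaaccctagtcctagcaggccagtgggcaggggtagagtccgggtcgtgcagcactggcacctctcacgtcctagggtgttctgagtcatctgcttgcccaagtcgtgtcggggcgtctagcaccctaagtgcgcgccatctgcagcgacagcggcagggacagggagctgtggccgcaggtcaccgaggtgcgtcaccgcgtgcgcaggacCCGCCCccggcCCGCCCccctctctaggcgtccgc

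In Gmps the GC box began 71 and 17 bases before the start, and in Adssl1 its reverse complement began 35 and 24 bases before it. RefSeq windows from 250 bases before to 50 bases after a start were at hand for 9 of the 10 genes, in 10 windows because Impdh1 has 2, and Pfas was not among them. The GC box was in 10 of the 10 windows, against 35.7% of all 32851 windows of 300 bases. The letters CACGTG, the E-box that MYC and USF factors are known to bind, were in the windows of Atic, Paics and Impdh2 and not in those of Gmps, Adssl1, Ppat, Gart, Adsl or Impdh1, against 7.15% of all windows. TATAAA was in the windows of Gmps and Impdh2, against 13.6% of all. Both strands were searched, matches were counted also where they overlap, as TATAAA and its reverse complement do in the Gmps window, and a match describes letters, not a bound site. Ppat and Paics start close together on opposite strands of chromosome 5.

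**Figure D1:**
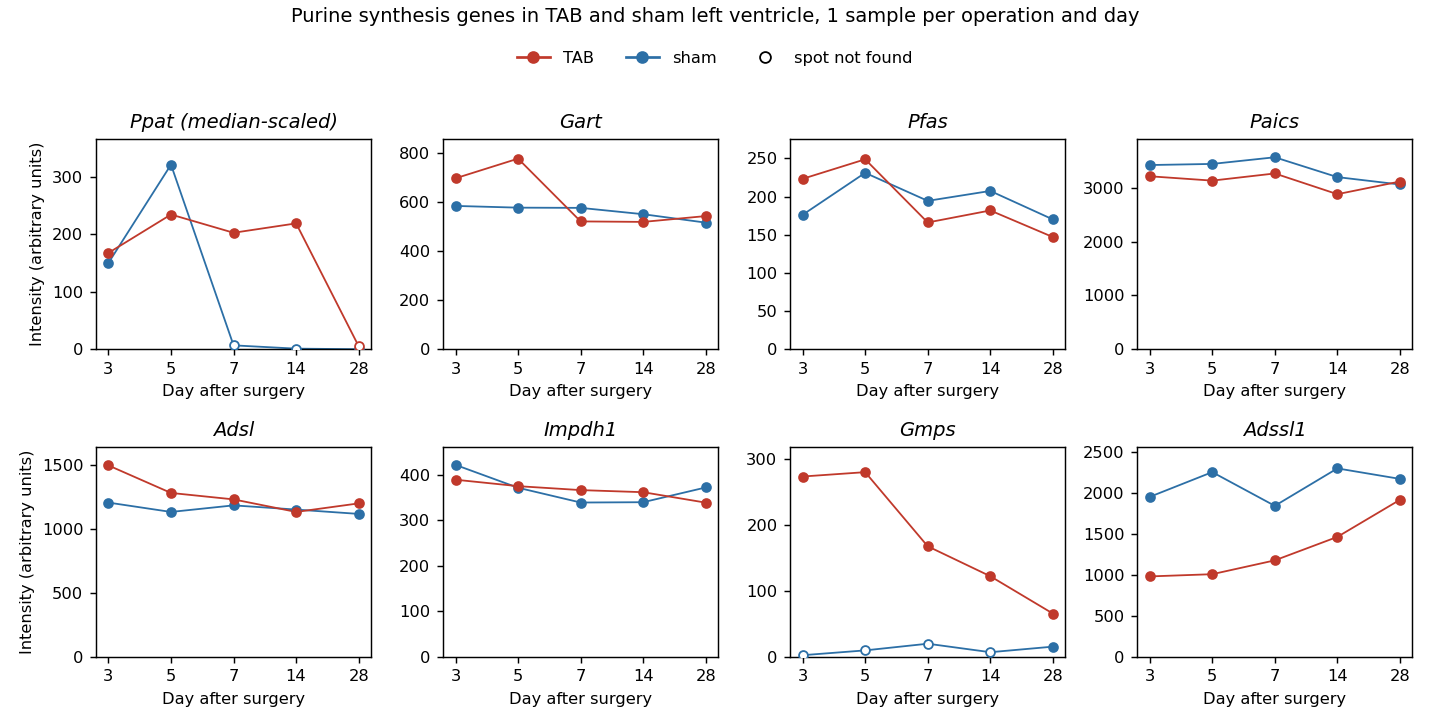
Intensity of each measured gene by day after surgery in TAB (red) and sham (blue), 1 sample per point, with open circles for spots that were not found. Ppat is shown after median scaling only and the other 7 genes after quantile normalization. TAB lies above sham on all 5 days for Gmps and below it on all 5 days for Adssl1.

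The route to IMP begins with Ppat, the amidotransferase that commits PRPP to the pathway. Its raw intensity in TAB was 121, 239, 198, 200 and 6 on days 3, 5, 7, 14 and 28. In sham it was 169, 307, 6, 1 and 0 on those days, so the spot was dark from day 7 in sham and on day 28 in TAB. The spot was found on 4 TAB and 2 sham arrays, and its detection p was above 0.11 on every array. On days 3 and 5, when the spot was found in both operations, the log2 ratio was 0.07 and −0.51. With values below 1 set to 1, the mean log2 ratio over the 5 days was 2.91 (95% interval −0.31 to 6.12), with a limma adjusted p of 0.216 over 19942 genes, and it came from the 3 days on which a spot was not found.

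Gart, a trifunctional enzyme with the glycinamide ribonucleotide steps, had normalized intensities in TAB of 695, 775, 520, 518 and 542 on days 3, 5, 7, 14 and 28. In sham they were 583, 576, 575, 549 and 515. The TAB samples of days 3 and 5 lay above all sham samples, and those of the other days lay within or near the sham range. The mean log2 ratio was 0.11 (95% interval −0.20 to 0.41), with a limma adjusted p of 0.590.

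Pfas, which makes formylglycinamidine ribonucleotide with glutamine, read 147 to 249 in TAB (median 182) and 170 to 231 in sham (median 194). Its detection p was below 0.05 on 0 TAB arrays and on 2 sham arrays, and its spot was found on all 10 arrays with raw intensities of 162 to 263. Its log2 ratio was 0.34 and 0.11 on days 3 and 5 and −0.23, −0.19 and −0.21 on days 7, 14 and 28. The mean was −0.04 (95% interval −0.35 to 0.28), with a limma adjusted p of 0.872.

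Paics, a bifunctional enzyme of carboxylation and succinocarboxamide synthesis, read 2884 to 3270 in TAB and 3065 to 3571 in sham. Its TAB samples were below the sham samples of the same day on 4 of 5 days, by small amounts, and the groups overlapped. The mean log2 ratio was −0.10 (95% interval −0.33 to 0.14), with a limma adjusted p of 0.514.

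Adsl, the lyase that acts both on the route to IMP and in the AMP branch, read 1493, 1279, 1228, 1130 and 1197 in TAB on days 3, 5, 7, 14 and 28. Sham read 1203, 1130, 1182, 1149 and 1115. TAB was higher on 4 of 5 days, most on day 3 with a log2 ratio of 0.31, and the groups overlapped. The mean log2 ratio was 0.12 (95% interval −0.12 to 0.37), with a limma adjusted p of 0.428. With median scaling only, the TAB samples (1139 to 1559) lay above the sham samples (1088 to 1127), with a mean log2 ratio of 0.25 and a limma adjusted p of 0.165, which did not pass. The intervals after quantile normalization leave room for changes of up to 1.30-fold higher for Adsl and 1.33-fold higher for Gart.

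In the GMP branch, Impdh1, 1 of the IMP dehydrogenases that make xanthosine monophosphate, read 339 to 389 in TAB and 339 to 422 in sham. Its mean log2 ratio was −0.01 (95% interval −0.25 to 0.24), with a limma adjusted p of 0.968. Its log2 ratios of single days lay between −0.14 and 0.11, with no day apart from the others. Its detection p was above 0.05 on 2 arrays, at 0.0514 in TAB on day 3 and 0.0540 in sham on day 14.

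Gmps, the next enzyme of that branch, had raw intensities in TAB of 199, 294, 169, 113 and 78 on days 3, 5, 7, 14 and 28. In sham they were 3, 9, 16, 7 and 20. After normalization the TAB values were 273, 279, 167, 122 and 65.4 and the sham values 2.39, 9.68, 19.8, 6.94 and 15.3. Every TAB sample lay above every sham sample, as for 9.99% of all genes, with the highest TAB values on days 3 and 5 and the lowest on day 28.

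The log2 ratios of Gmps in the same order of days were 6.83, 4.85, 3.08, 4.13 and 2.09, with a mean of 4.20 (SD 1.81, n = 5 days). Each was more than 2 SDs of that day's ratios from 0, which was so on all 5 days in the up direction for 0.348% of 16113 genes. Since these values chose the set, nothing is read from them beyond the description. The size of the ratio rests on sham spots near zero. The spot was found on 5 TAB arrays and 1 sham array, and the sham intensities of 3 to 20 compare with a 1st percentile of found spots of 25 to 27. With each value raised to that percentile of its array the mean log2 ratio was 2.70, a 6.51-fold higher TAB level. With 50 added to every intensity it was 1.83, so the size depends on how dim values are treated.

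Within its own arrays, the Gmps spot in TAB was as bright as or brighter than 76.4, 76.7, 69.2, 64.4 and 55.3% of all spots on days 3, 5, 7, 14 and 28. In sham it stood at 14.8, 33.1, 42.3, 28.1 and 39.1%. Its detection p in TAB was below 0.05 on day 5 alone, at 0.0461, and otherwise 0.316 to 0.838, while in sham it was 0.968 to 0.999. On the day 28 sham array the spot counted as found with a raw intensity of 20, below the 1st percentile of found spots there. These are ranks of spot brightness on an array, not of transcript levels.

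**Figure D2:**
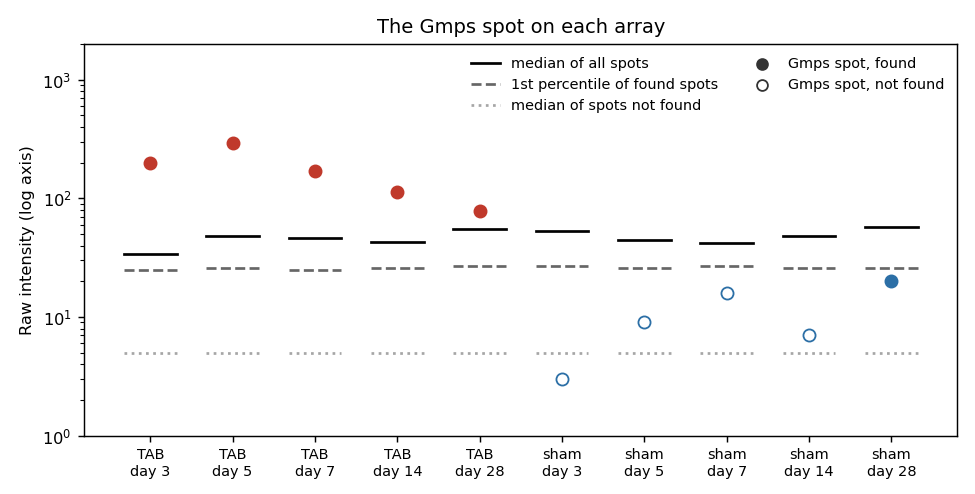
Raw intensity of the Gmps spot on each of the 10 arrays (log axis, TAB in red, sham in blue, open circles where the spot was not found), with the array's median, the 1st percentile of found spots and the median of spots not found as lines. The TAB spots lie between 78 and 294, above the median of their arrays, and the sham spots lie between 3 and 20, below the 1st percentile of found spots.

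Markers of other cells of the ventricle were set beside these values, where over all genes 9.19% were called higher and 7.87% lower. Of 11 kept markers of dividing cells, 3 were higher in TAB and none lower at an adjusted p of 0.05, with a summed normalized intensity of 735 to 2804 in TAB and 446 to 778 in sham. Of 9 kept leukocyte markers, 7 were higher and 1 lower, with a sum of 3363 to 7845 against 2291 to 2768. Of 6 kept fibroblast markers, 4 were higher, with a sum of 29410 to 47071 against 19819 to 23136, and 0 of 6 endothelial markers were called, with a sum of 4662 to 6949 against 4802 to 5845. The part of these cells in the Gmps values was not tested.

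In the AMP branch, Adssl1 joins IMP and aspartate. Its normalized intensity in TAB was 983, 1010, 1179, 1466 and 1920 on days 3, 5, 7, 14 and 28. In sham it was 1955, 2258, 1846, 2304 and 2176. The TAB samples of days 3 to 14 lay below all sham samples, and that of day 28 lay above the sham sample of day 7, so the groups overlapped.

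The log2 ratios of Adssl1 were −0.99, −1.16, −0.65, −0.65 and −0.18 on days 3, 5, 7, 14 and 28, and 17.5% of all genes were likewise lower on all 5 days. The mean was −0.73 (SE 0.16, 95% interval −1.12 to −0.33), 0.604 times the sham level, with a limma adjusted p of 0.0360. Adssl1 was the 1 gene called among the 6 kept other than Gmps, where 17.1% of the 16113 genes were called, 9.19% higher and 7.87% lower. The genes were chosen with this comparison known, so nothing is read from that count. Neither Adssl1 nor the other 5 genes passed the rule of 2 SDs on any day, while 5.21, 5.52, 5.66, 5.67 and 5.88% of all genes did, from day 3 to day 28 in order.

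The Adssl1 call sat close to its threshold. With median scaling alone the mean was −0.61 and the adjusted p 0.0554, and with normalization within each operation −0.62 and 0.0552. With probes below 1 set to 1 the mean was −0.73 and the adjusted p 0.0707. Without day 3, 5, 7 or 14 in turn the mean stayed between −0.75 and −0.62 and the adjusted p rose to between 0.0758 and 0.106, and without day 28 they were −0.86 and 0.0268.

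The mean log2 ratio of Adssl1 on days 14 and 28 minus that on days 3, 5 and 7 was 0.52 (95% interval −0.18 to 1.21), with a limma adjusted p of 0.516. The log2 ratio nearest to 0 was that of day 28, but the difference between late and early days did not pass the test. In this comparison 0% of the 16113 genes passed an adjusted p of 0.05 in limma, and 11% (1766 genes) had an unadjusted p below 0.05. For the other 5 genes the late minus early differences ran from −0.27 for Pfas to 0.06 for Paics, with adjusted p between 0.673 and 0.971.

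**Figure D3:**
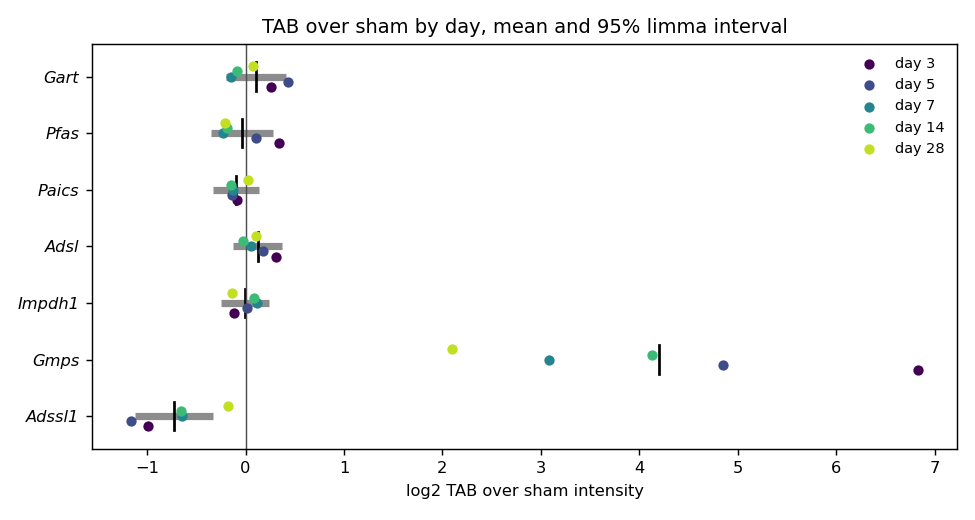
log2 ratio of TAB over sham for the 7 genes kept, 1 point per day, with the mean as a black line and the 95% limma interval as a grey bar. Gmps has no interval because its values chose the set, and the bar of Adssl1, from −1.12 to −0.33, does not reach 0.

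Adssl1 is known as the isozyme of heart and skeletal muscle, so cardiomyocyte markers were set beside it. Of 10 markers, 0 were higher and 2 were lower, where 7.87% of all genes were lower. The 2 were Mb, with a mean log2 ratio of −0.68, and Atp2a2, with −0.49. Mb had 2 probes and Atp2a2 had 3, and the probe with the largest summed absolute ratios stood for each. Both calls therefore rest on probes picked by the ratio that was tested. In TAB those probes had mean intensities of 242 for Mb and 149 for Atp2a2. Myl2 was saturated on 9 arrays and could not show a change. For the other 9 the median log2 ratio was −0.36, against −0.03 over all genes, and their summed level was 155923 to 168901 in TAB and 161842 to 196162 in sham. By day their median log2 ratio was −0.17, −0.38, −0.45, −0.38 and −0.35, so the Adssl1 ratio lay below it on days 3, 5, 7 and 14 and above it on day 28. The part of the cardiomyocyte share in the Adssl1 result was not tested.

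**Figure D4:**
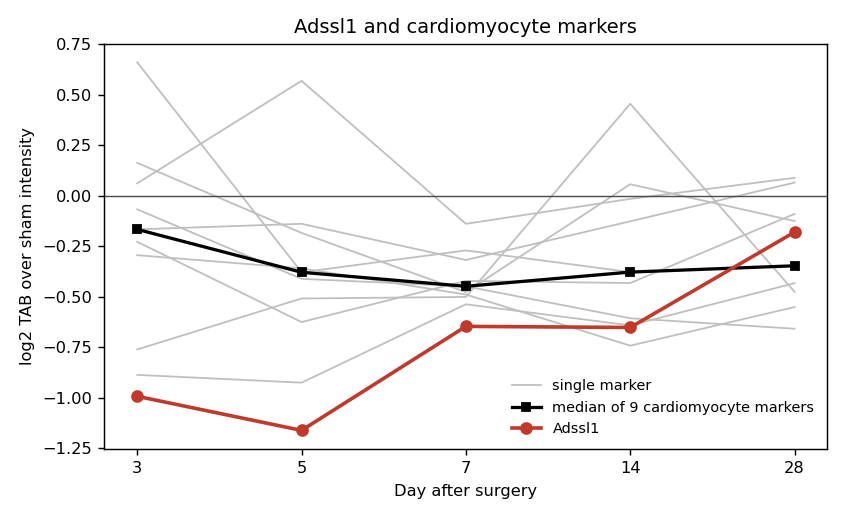
log2 ratio of TAB over sham by day for Adssl1 (red) and the 9 cardiomyocyte markers that were not saturated (grey, median in black). Adssl1 starts at −0.99 and −1.16 on days 3 and 5 and reaches −0.18 on day 28, while the marker median stays between −0.45 and −0.17.

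Adss, the isozyme of other tissues, was not in the set but takes the same step. It read 166 to 189 in TAB and 116 to 157 in sham, so that TAB and sham did not overlap, as for 17.7% of all genes. Its mean log2 ratio was 0.33, with a limma adjusted p of 0.110, which did not pass.

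The log2 intensities of 5 genes followed Gmps most closely over the 10 samples. They were Rab3gap2 (Pearson r = 0.985), Il17ra (0.979), 9130206I24Rik (0.976), Ptgis (0.971) and Dsn1 (0.971). This order rests in part on dim spots, since Gmps was found on 1 sham array, Il17ra on 2, Dsn1 on 3 and 9130206I24Rik on 0, with Rab3gap2 and Ptgis found on all 10 arrays. Ptgis makes prostacyclin and Dsn1 belongs to the kinetochore. Genes near to Adssl1, a comparison chosen after its values were seen, included Mreg (r = 0.994), Dld (0.987), Fem1a (0.986) and Rxra (0.984). Dld is a subunit of the mitochondrial 2-oxoacid dehydrogenases, and these genes were found on every array. These correlations describe 10 arrays in which TAB and sham differ, and the genes share those arrays.

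The pathways around the purine route were covered by 9 lists of 74 symbols, of which 65 were kept. Of these, 10 were higher and 2 lower in TAB at an adjusted p of 0.05, 18.5% against 17.1% of all genes, with a median log2 ratio of 0.08 against −0.03. Each adjusted p in the next sentences is from limma over all 16113 genes. Of the genes called, Mthfd1l had 4 probes, Slc38a1 had 3 and Upp1 had 2. The probe with the largest summed absolute ratios stood for each, so these calls rest on probes picked by the ratio that was tested.

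Among 5 kept genes of PRPP supply, none was called. The largest difference was that of Prps2, a PRPP synthetase, at −0.43 (adjusted p = 0.0827). Among 10 kept one-carbon genes, which supply the formyl groups of the ring, 2 were higher. Psat1, of serine synthesis, had a mean log2 ratio of 1.03 (adjusted p = 0.0449), and Mthfd1l, which makes formate in mitochondria, had 1.10 (adjusted p = 0.0292). Shmt2 of this list was found on no array.

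Of 6 genes of glutamine supply, the transporter Slc38a1 was lower at −1.17 (adjusted p = 0.0170). Its spot was found on 0 TAB and 3 sham arrays, and with values raised to the 1st percentile of found spots the mean was −0.39 (adjusted p = 0.478), which did not pass. Of 7 kept genes that convert purine nucleotides into each other, Ampd2, an AMP deaminase, was higher at 0.54 (adjusted p = 0.0295). None of 5 kept salvage genes was called, the largest being Aprt, which salvages adenine, at 0.57 (adjusted p = 0.0934).

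Of 11 breakdown genes, 3 were higher. Ada, adenosine deaminase, had a mean log2 ratio of 1.97 (adjusted p = 0.0398), but its spot was found on 5 TAB and 0 sham arrays. With values raised to the 1st percentile of found spots TAB was 1.83-fold higher. Gda, guanine deaminase, had 0.69 (adjusted p = 0.0318), and Entpd1, an ectonucleotidase, 0.65 (adjusted p = 0.0398).

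Uck2, which phosphorylates uridine and cytidine, read 674 to 1887 in TAB and 220 to 290 in sham, a mean log2 ratio of 2.35 (adjusted p = 0.0120). Upp1, uridine phosphorylase, had 1.19 (adjusted p = 0.0233) and Ctps, CTP synthetase, 0.61 (adjusted p = 0.0438), which makes 3 of 8 kept pyrimidine genes. Rrm2, the small subunit of ribonucleotide reductase, read 64.6 to 273 in TAB and 8.99 to 46.5 in sham, with 2.49 (adjusted p = 0.0223), as 1 of 8 kept deoxynucleotide genes. Its spot was found on 3 of 5 sham arrays, and with values raised to the 1st percentile of found spots the mean log2 ratio was 1.99 (adjusted p = 0.0109). Among 5 kept regulators, Rheb, the GTPase that activates mTORC1, was lower at −0.60 (adjusted p = 0.0332). The other 4 were not called. Of these, Myc had a mean log2 ratio of 1.09 (adjusted p = 0.0515) and Mycn 0.78 (adjusted p = 0.0711), while Atf4 had 0.11 and Mtor 0.01.

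**Figure D5:**
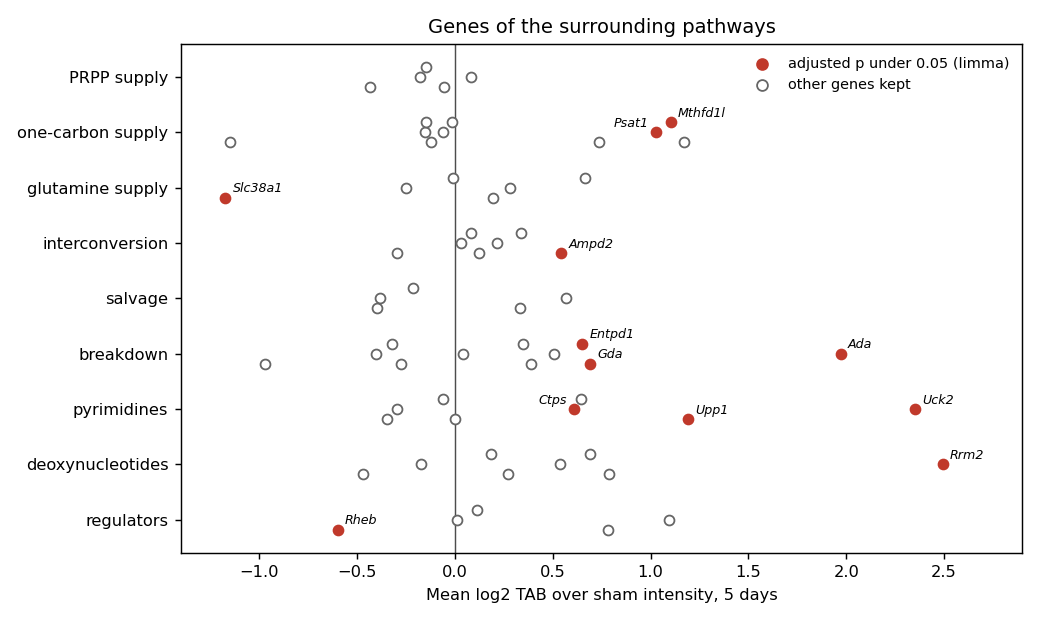
Mean log2 ratio of TAB over sham over the 5 days for the 65 genes kept in 9 lists around the purine route, 1 point per gene, filled where the limma adjusted p was under 0.05. The 12 filled points are named, 10 to the right of 0 and 2 to the left. Rrm2, Ada and Slc38a1 include spots that were not found.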

How the data were processed

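The mRNA arrays were 1-colour Mouse Whole Genome OneArray slides. The authors deposited raw intensity per probe and sample, with a detection p-value whose computation is not given in the sources used here and a flag whose negative value was read as a spot not found. All arrays were brought to the same median intensity, 19976 of 26423 probes that reached a scaled intensity of 1 on every array were kept, and quantile normalization used the median over the 10 samples at each rank, before log2. The study's text can also be read as normalization within each operation, which was tried. Where a gene had several probes, the one whose absolute log2 ratios summed highest over the days stood for it (16113 genes). For such a gene the probe was thus picked by the ratio that was then tested. limma 3.58.1 in R 4.3.3 (lmFit and eBayes) tested the TAB effect with day as a block, which is how the study forms its ratios, with Benjamini-Hochberg adjustment at 0.05 over all genes. TAB and sham deviations of a day correlated across genes with r between −0.0165 and 0.113. A 1-day call was a log2 ratio past 2 SDs of that day. Lists were kept as fixed, symbols that are aliases were counted apart, and the genes of the lists named are those with an adjusted p under 0.05 or, in a list with none, the gene with the largest absolute mean log2 ratio. Adss, Shmt2 and the other kept regulators are named as well. Pearson r over 10 samples chose the genes most like Gmps. The genes and lists were chosen with earlier results of these data known. Alternatives are given below; raising values to the 1st percentile of found spots and keeping only probes found on all 10 arrays were chosen after seeing the data. Promoter windows are from RefSeq (GRCm38.p6). The number of arrays limits the precision.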

Additional observations from a re-analysis of the deposited data

How the results depend on the processing

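Among the 6 tested genes other than Gmps, Adssl1 was called in 11 of 18 alternatives, with adjusted p from 0.00574 to 0.106, and the other 5 were called in none. The 11 include alternatives that only choose, average or separate probes. With 1 probe per gene of the set these could not change the Adssl1 values, so the count is no measure of how firm the call is. With median scaling only, the small mean log2 ratios of Paics, Pfas and Impdh1, below 0 in the report, were 0.04, 0.04 and 0.10. The number called, 1 in the report, was 0 with median scaling only, 0 with normalization within each operation and 0 with probes below 1 set to 1, and 0 to 1 when a day was left out. Groups that did not overlap, 0 in the report, numbered 1 with median scaling only and 1 within each operation, both Adsl, and 0 to 1 without a day, which was Adssl1 without day 7 or day 28. Day calls, 0 in the report, numbered 3 with probes below 1 set to 1, which were those of Ppat, and 1 with a threshold of an absolute log2 ratio of 1, which was Adssl1 on day 5. Gmps passed 2 SDs on all 5 days in the alternatives that kept it. It was left out with the lowest tertile and among probes found on all arrays.

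Without the replicate block for day, 1951 genes were higher and 1647 lower, against 1481 and 1268 with it, the number of the 6 genes called stayed at 1, and 5 genes differed between late and early days. Over all genes the higher count was 2242 with 50 added, 459 with probes below 1 set to 1, and 20 to 1482 with a day left out. The lower count was 2227 with 50 added, 1951 without the lowest tertile, 218 with probes below 1 set to 1, 2064 with trend and robust on, 2046 among probes found on all arrays, and 1 to 1271 with a day left out. Without day 3, 5 or 7 only 30, 98 and 22 genes in all were called. Late minus early calls, 0 in the report, were 10 with 50 added, 7 without the lowest tertile, 34 with trend and robust on and 16 among probes found on all arrays. Groups did not overlap for 2859 genes, and for 3375 to 4699 with a day left out. With median scaling only, 67.6% of calls were higher, against 53.9%, and the median log2 ratio of all genes was 0.02 against −0.03. The cause of these shifts was not tested.

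Precision is limited by 1 sample per operation and day, by spots not found on some arrays (Gmps and Rrm2 in sham, Ppat, Ada and Slc38a1), by detection p above 0.05 (Ppat on 10 arrays, Gmps on 9, Pfas on 8, Impdh1 on 2), and by a single probe per gene. The share of found spots with a detection p below 0.05 was 70.8% and 63.6% on the sham arrays of days 7 and 28 and 33.5 to 40.8% on the others, so that p-value is not comparable between arrays.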
